A study of Mus musculus with 14 samples.

Results

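The miR-465 to miR-883 cluster is a group of microRNAs (miRNAs) on the mouse X chromosome. Its members were taken here as every mature miRNA named miR-463, miR-465, miR-470, miR-471, miR-741, miR-742, miR-743, miR-871, miR-878, miR-880, miR-881 or miR-883, with any letter and either arm. These were 32 of the 999 names listed by both count tables of the study together. All 32 were among the 900 names of the whole tissue table, and 30 were among the 677 of the epithelial cell table. Small RNA had been sequenced from the epididymis of male Swiss mice, 8 weeks of age, in its proximal (caput), middle (corpus) and distal (cauda) regions. Whole tissue gave 3 caput, 2 corpus and 3 cauda libraries, and isolated epithelial cells gave 2 libraries from each region. Each library was made from the pooled tissue of several animals, none of which was described as mutant or treated, and in all of them the vasculature had been perfused with saline. For the epithelial cells, sperm were flushed from the cauda lumen or washed out of the incised caput and corpus, the tissue was digested with trypsin and collagenase, and the cells that did not attach to plates were collected.

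A miRNA is a short RNA that is cut from a hairpin precursor and guides an Argonaute protein to messenger RNAs, mainly by pairing through its seed, bases 2 to 8 from the 5′ end. Each hairpin can give a mature miRNA from its 5′ arm (5p) and from its 3′ arm (3p). The cluster lies between the genes Slitrk2 and Fmr1, belongs to the fast-evolving X-linked miR-506 family, and is known for expression in testis, where its members are made in spermatogenic cells. Sperm leave the testis and pass through caput, corpus and cauda, where they are stored. The label of the cluster as linked to the germline is therefore background knowledge. Counts of mature miRNAs carry no mark of the cell that made them, so the label could not be checked directly, and fewer cells of a type and less RNA per cell cannot be told apart in these bulk samples.

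All 32 members matched an entry of RefSeq on GRCm38.p6. Their 19 hairpins lay on the minus strand at chrX:66776757-66839125, a stretch of 62369 bp in which GENCODE M21 placed no gene other than miRNA genes, so that the hairpins were intergenic. Slitrk2 ended 115363 bp before the first hairpin, Fmr1 began 1839415 bp after the last one, and the nearest protein-coding gene on that side was Gm1140, at 843774 bp. The mature sequences were 21 to 23 bases long and held 24 different seeds in 30 different sequences. The seeds and sequences decide which members can be told apart in counts. They are shown for the members that led the counts and for those that share a seed, with the seed in capitals.

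The 5 members with the highest levels in whole tissue each had a seed of their own, except miR-743b-3p, whose seed miR-743a-3p shares.
miR-881-3p: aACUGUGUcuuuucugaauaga
miR-743b-3p: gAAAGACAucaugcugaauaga
miR-743a-3p: gAAAGACAccaagcugaguaga
miR-871-3p: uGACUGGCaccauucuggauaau
miR-470-5p: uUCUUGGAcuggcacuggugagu
miR-741-3p: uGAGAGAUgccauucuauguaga

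The 5p arms of the miR-465 hairpins shared the seed AUUUAGA and differed at 1 to 3 of the later bases.
miR-465a-5p: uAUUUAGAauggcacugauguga
miR-465b-5p: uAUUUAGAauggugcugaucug
miR-465c-5p: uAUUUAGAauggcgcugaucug
miR-465d-5p: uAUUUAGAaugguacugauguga
Counting from 1 at the 5′ end and writing the first-named miRNA's base first, miR-465c-5p and miR-465b-5p differed at 1 base (C13U). The same substitution, C13U, separated miR-465a-5p from miR-465d-5p, and miR-465a-5p and miR-465c-5p differed at 2 bases (A14G and G20C).

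The 3p arms miR-465a-3p, miR-465b-3p and miR-465c-3p were 1 sequence, and miR-871-5p and miR-743a-5p shared the seed AUUCAGA, and miR-883a-3p and miR-883b-3p the seed AACUGCA.
miR-465a-3p: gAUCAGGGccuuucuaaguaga
miR-871-5p: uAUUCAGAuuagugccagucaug
miR-743a-5p: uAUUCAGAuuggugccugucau
miR-883a-3p: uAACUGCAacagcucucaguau
miR-883b-3p: uAACUGCAacaucucucaguau
The deposited counts of the 3 identical miR-465 names were equal in every library, each an equal share of the same reads, and their values are given together. Counts of members keep them as 3 names unless distinct sequences are said to be counted. Between miR-743a-3p and miR-743b-3p there were 3 substitutions (C9U, A12U and G18A), all outside the seed, and between miR-883a-3p and miR-883b-3p there was 1 (G12U).

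Whole tissue libraries held 1243398 to 2135501 counts and epithelial libraries 89039 to 362867, so a miRNA of equal level had fewer reads behind it in the epithelial cells. Levels are given as CPM, counts relative to library sizes corrected by TMM factors. A region was said to hold a miRNA, or to have it identified, where the mean count over its libraries exceeded 10. The epithelial cell label was checked against marker miRNAs. The list for epithelium (the miR-200 family and miR-141, with 9 names in the epithelial table and 10 in the whole tissue table) summed to 13602 to 18876 CPM in the epithelial libraries, against 7718 to 22705 CPM in whole tissue. The muscle list held miR-143 and miR-145 of smooth muscle and miR-1 and miR-133 of striated muscle, with 10 and 13 names. It summed to 144903 to 337271 CPM in the epithelial libraries, against 53262 to 249965 CPM in whole tissue. By region, epithelial caput had 144903 to 196076 CPM against 53262 to 66012 CPM in whole caput. Epithelial corpus had 210623 to 212820 against 76416 to 80411 CPM, and epithelial cauda 158524 to 337271 against 223591 to 249965 CPM. The endothelial list (miR-126, under other names in each table) summed to 25517 to 35754 CPM in epithelial caput, 13092 to 14322 CPM in epithelial corpus and 46640.1 to 56669 CPM in epithelial cauda libraries, against 13946 to 18250 CPM in whole tissue. Leukocyte names summed to 470.4 to 1590.0 CPM in the epithelial libraries, against 966 to 1994 CPM in whole tissue, and red blood cell names to 207 to 2981 CPM, against 151 to 2562 CPM. Markers of other cell types were thus present in the epithelial libraries. Those of endothelium were higher in their caput and cauda than in any whole tissue library. The muscle list was higher than in whole tissue in the epithelial caput and corpus, and overlapped it in the cauda. The epithelium list was lower in the epithelial caput (15526 to 17628 against 20910 to 22705 CPM) and higher in the epithelial corpus and cauda. The part of these cell types in the results was not tested.

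Together the members took a small share of the reads, which was higher in the corpus and cauda than in the caput. In whole tissue they took 0.0815, 0.0464 and 0.0472% of the 3 caput libraries, 0.239 and 0.258% of the corpus libraries, and 0.619, 0.385 and 0.477% of the cauda libraries. The group mean was 0.0584% ± 0.0200 (SD, n = 3) for caput, 0.248% ± 0.0135 (n = 2) for corpus and 0.494% ± 0.118 (n = 3) for cauda, the last 8.46 times the caput mean, and no 2 regions overlapped. In epithelial cells the caput libraries had 0.0278 and 0.0197%, the corpus libraries 0.246 and 0.121% and the cauda libraries 0.0953 and 0.257%. Both caput values lay below all others, while corpus and cauda overlapped, with means of 0.184% ± 0.0884 and 0.176% ± 0.115 (n = 2 each). The 95% Wilson intervals covered counting error only, and those of the 2 libraries did not overlap in the epithelial corpus or the epithelial cauda. In the first whole caput library the interval ran from 0.0774 to 0.0859%, and in the first epithelial cauda library from 0.0846 to 0.107%. The first caput and first cauda libraries of whole tissue had the highest share of their groups.

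**Figure D1:**
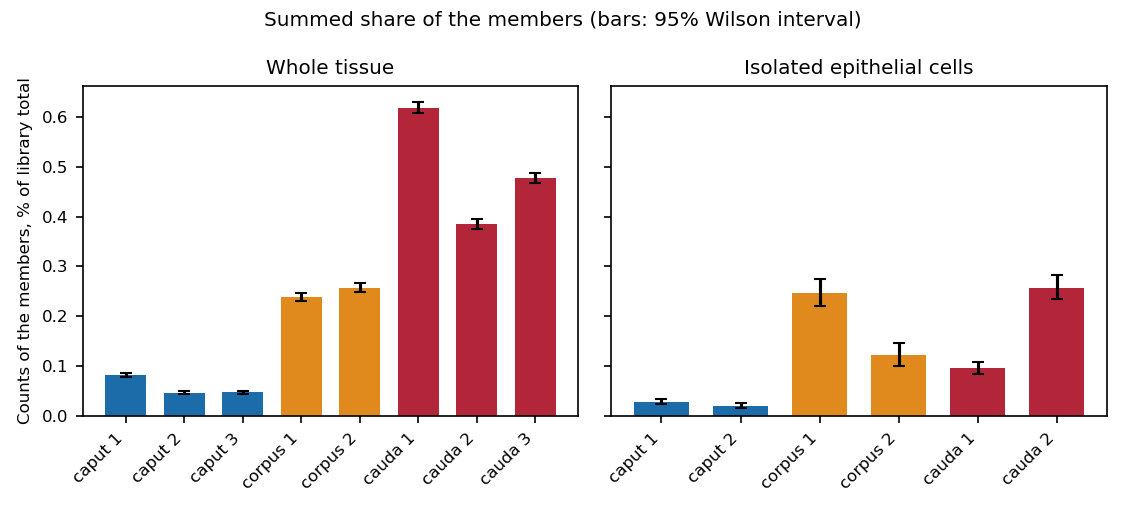
Summed counts of the 32 members as percent of the library total (vertical axis, from 0) for the 8 whole tissue libraries (left) and the 6 epithelial libraries (right, 30 members listed), with 95% Wilson intervals as error bars. In whole tissue the bars step up from caput (at most 0.0815%) to corpus (0.239 and 0.258%) to cauda (at least 0.385%), and in epithelial cells both caput bars are at most 0.0278% with corpus and cauda overlapping.

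A few members carried most of these reads. miR-881-3p, miR-743b-3p, miR-871-3p, miR-470-5p and miR-741-3p took 73.1 to 79.9% of the members' counts in a whole tissue library and 76.1 to 85.3% in an epithelial one. In the whole cauda, miR-881-3p ranked 58 of the 900 names by mean CPM, miR-743b-3p 69, miR-871-3p 75 and miR-470-5p 76, where 325 names were identified. In the whole caput the lowest of these 4 ranked 149. The whole caput held 12 identified members, the corpus 18 and the cauda 20, and the 12 of the caput were identified in all regions. The epithelial caput held 2 (miR-470-5p and miR-871-3p), the corpus 6 and the cauda 8. With all libraries drawn down to the smallest total, the numbers in whole tissue became 1.5, 7 and 8 (medians of repeated draws) and those in epithelial cells 0, 5 and 6, at which the preparations differed by at most 2 members in each region. The 12 members never identified in whole tissue had 0 to 18 reads per library, and the 22 never identified in epithelial cells had 0 to 10, with 4 of them at 0 in all 6 libraries.

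**Figure D2:**
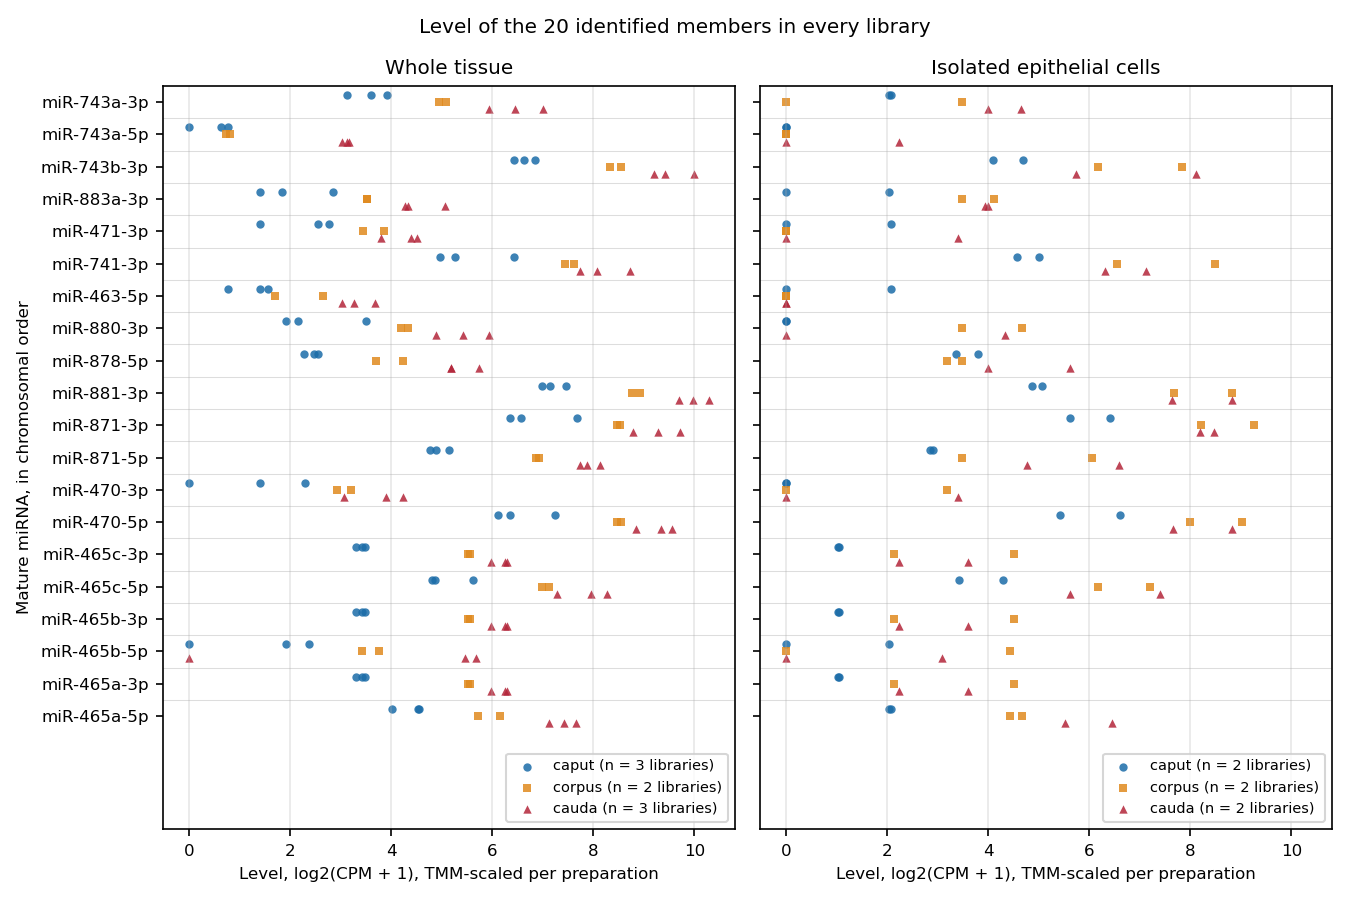
Level of the 20 members identified in whole tissue, as log2(CPM + 1) on the horizontal axis, with 1 row for each mature miRNA in chromosomal order, 1 point for each library and colours for caput, corpus and cauda, in whole tissue (left) and epithelial cells (right). In whole tissue the points of 19 members run from caput through corpus to cauda with no cauda library at or below a caput library, the exception being miR-465b-5p, which is at 0 in 1 caput and 1 cauda library.

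The comparison of regions in whole tissue asked which members changed along the duct. Differences were tested by limma-voom over all miRNAs identified in either region compared, and a member was called where its adjusted p (FDR) was below 0.05 and its levels differed 2-fold or more. All members called were higher in the more distal region. From caput to corpus, 17 of the 18 members tested were higher, where 29.9% of all 334 miRNAs tested were called and 14.1% were called higher. From corpus to cauda the number was 10 of 20 (27.3% of all miRNAs called, 14.4% called higher), and from caput to cauda it was 19 of 20 (53.2% called, 27.9% called higher). Since a member could pass the count filter through the distal region alone, those identified in both regions are counted too: 12 of 12 were called from caput to corpus, 8 of 18 from corpus to cauda and 12 of 12 from caput to cauda, against 24.8, 23.6 and 44.3% of all miRNAs identified in both. Their median log2 change was 1.97, 0.78 and 2.86, against -0.02, -0.03 and -0.12 over all miRNAs identified in both. By distinct sequences, 15 of 16, 10 of 18 and 17 of 18 of all tested were called. In 18 of 18, 17 of 20 and 19 of 20 members every library of the distal region lay above every library of the proximal one, against 35.3, 40.8 and 39.7% of all miRNAs tested. Of the members tested, 6, 2 and 8 had passed the count filter through the distal region alone. The regional comparisons share libraries and are not independent of each other. Scaling by library totals moved the median of all miRNAs tested from caput to cauda from -0.05 to 0.30 and left the numbers of members called and their directions as they were.

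**Figure D3:**
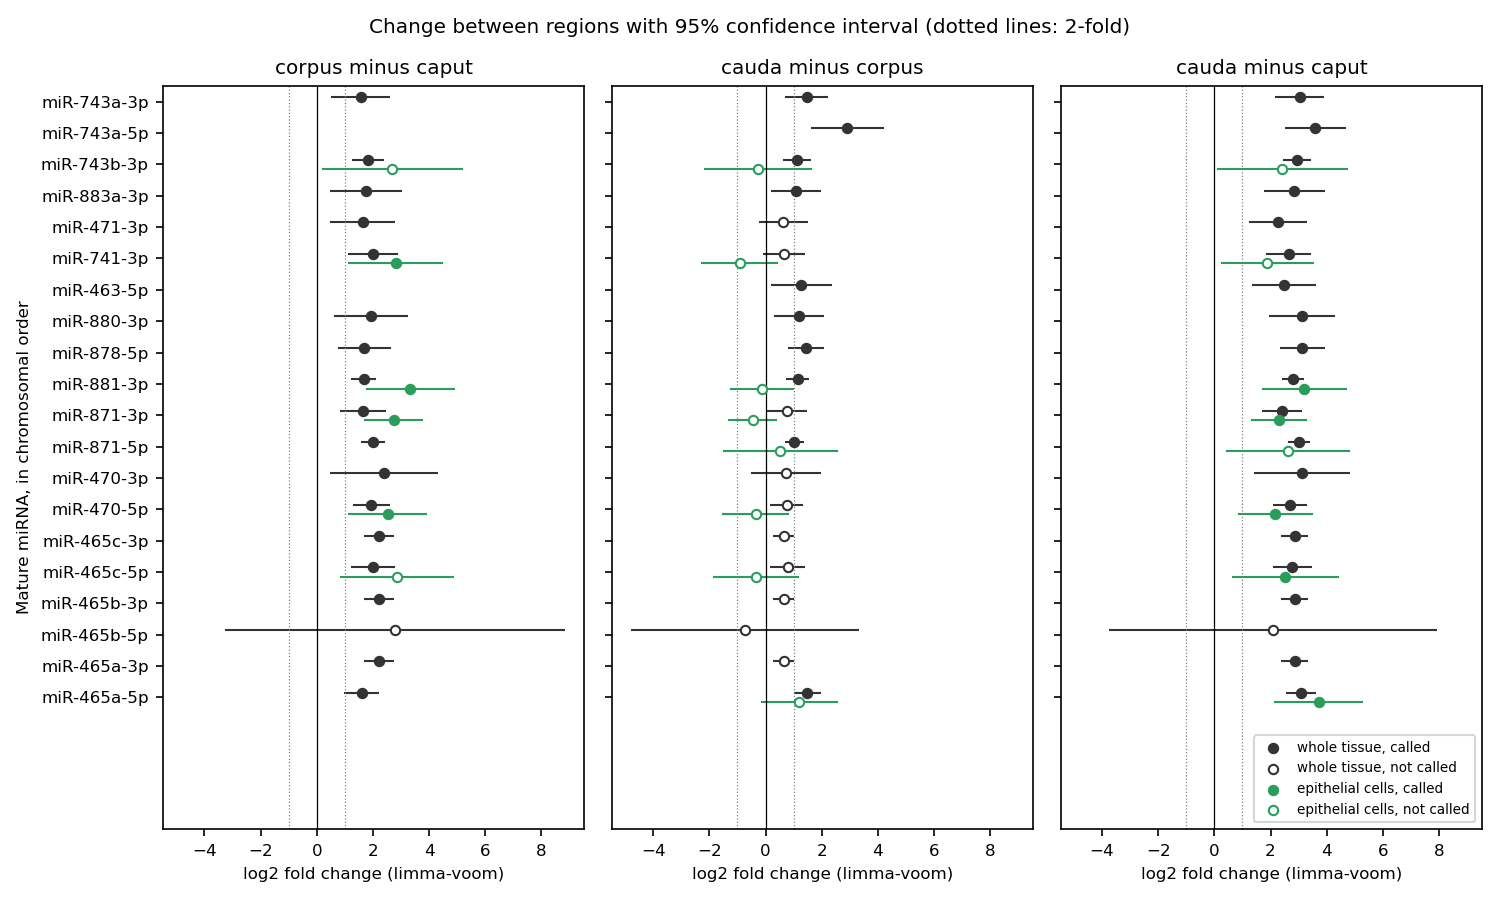
log2 fold change between regions (horizontal axis, limma-voom) with its 95% confidence interval for each member tested, in whole tissue (black) and epithelial cells (green), filled where called, and dotted lines mark 2-fold. From caput to cauda the called whole tissue members lie between 2.27 and 3.60, and from corpus to cauda every epithelial interval spans 0.

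The most abundant member, miR-881-3p, had 174, 139 and 125 CPM in the 3 caput libraries, 431 and 487 CPM in the corpus and 1251, 826 and 997 CPM in the cauda. The regions did not overlap at any step. Its log2 change was 1.67 (SE 0.21, adjusted p = 9.62e-05) from caput to corpus, 1.14 (SE 0.18, adjusted p = 0.000486) from corpus to cauda and 2.81 (SE 0.18, adjusted p = 3.26e-07) from caput to cauda. miR-743b-3p, which lies at the other end of the group of hairpins from miR-465, had 114, 97.3 and 84.5 CPM in the caput, 319.8 and 371 CPM in the corpus and 1021, 584 and 683 CPM in the cauda. It too was separated at each step, with log2 changes of 1.82 (SE 0.26), 1.11 (SE 0.22) and 2.93 (SE 0.22), each called.

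miR-871-3p had 205, 80.7 and 93.9 CPM in caput, 369.8 and 354 CPM in corpus and 840.4, 443 and 621 CPM in cauda libraries, with the first caput and first cauda library the highest of their groups. miR-470-5p had 151, 68.3 and 80.1 CPM in caput, 375 and 351 CPM in corpus and 750.4, 460.5 and 646 CPM in cauda libraries, and miR-741-3p had 85.5, 30.4 and 37.3 CPM in caput, 173 and 196 CPM in corpus and 420.0, 212 and 268 CPM in cauda libraries. For these 3 members, too, the first libraries of caput and cauda stood highest, and no library of one region overlapped another. They were called from caput to corpus, with log2 changes of 1.64 (SE 0.36), 1.95 (SE 0.30) and 1.998 (SE 0.40). From corpus to cauda none of the 3 was called, at 0.77 (SE 0.32, adjusted p = 0.0668), 0.75 (SE 0.26, adjusted p = 0.0333) and 0.65 (SE 0.33, adjusted p = 0.118) in the same order. From caput to cauda all 3 were called, at 2.41 (SE 0.32), 2.70 (SE 0.27) and 2.65 (SE 0.36).

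Among the 5p arms of the miR-465 family, miR-465a-5p had 22.5, 15.2 and 22 CPM in caput, 51.6 and 70.2 CPM in corpus and 202, 139 and 171 CPM in cauda libraries, and miR-465c-5p had 48.2, 26.9 and 28 CPM in caput, 126.3 and 138 CPM in corpus and 309, 154.5 and 245 CPM in cauda libraries. Both were separated between all regions. miR-465a-5p was called at each step, by 1.60 (SE 0.28), 1.48 (SE 0.21) and 3.08 (SE 0.24), while miR-465c-5p changed by 1.99 (SE 0.35) from caput to corpus and 2.78 (SE 0.31) from caput to cauda and stayed below 2-fold from corpus to cauda, at 0.79 (SE 0.28, adjusted p = 0.0368). The shared 3p sequence of miR-465a, b and c, with the reads of the 3 names added, had 28.9, 30.4 and 26.3 CPM in caput, 137.5 and 133.8 CPM in corpus and 230.1, 185 and 225 CPM in cauda libraries. It was called from caput to corpus at 2.21 (SE 0.24) and from caput to cauda at 2.86 (SE 0.22), and had 0.65 (SE 0.16, adjusted p = 0.0077) from corpus to cauda, an adjusted p below the threshold with a change under 2-fold.

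miR-465b-5p stood apart from the other members. It had 0 reads in the first caput and the first cauda library of whole tissue, against 6 and 5 reads in the other caput libraries, 13 and 19 reads in the corpus libraries, and 70 and 85 in the other cauda libraries. In the same 2 libraries miR-465c-5p, 1 base apart, had 75 and 600 reads. A count of 0 allows up to 3 reads, which was 1.93 CPM in the first caput library and 1.54 CPM in the first cauda library. miR-465b-5p was not called in any regional comparison of whole tissue, with 2.80 (SE 2.71, adjusted p = 0.396) from caput to corpus, -0.72 (SE 1.82, adjusted p = 0.741) from corpus to cauda and 2.08 (SE 2.62, adjusted p = 0.482) from caput to cauda. Its change from corpus to cauda turned to 1.449 with edgeR, where it was not called. Without the first cauda library it was called higher in all 3 comparisons, by 2.80, 2.03 and 4.84 (adjusted p = 0.00806, 0.00225 and 6.88e-05, limma-voom), and edgeR called it from caput to cauda with all libraries (3.70, adjusted p = 0.0142). With miR-465b-5p and miR-465c-5p added together, a choice made after their values were seen, the sum was 48.2, 31 and 30.7 CPM in the caput, 136 and 150.2 CPM in the corpus and 309, 198 and 295 CPM in the cauda. The sum changed by 1.99 (SE 0.27, adjusted p = 0.000119) from caput to corpus and 2.87 (SE 0.24, adjusted p = 1.27e-06) from caput to cauda, both called, and by 0.88 (SE 0.22, adjusted p = 0.00614) from corpus to cauda, under 2-fold. Whether reads of one name were assigned to the other in these 2 libraries was not tested.

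**Figure D4:**
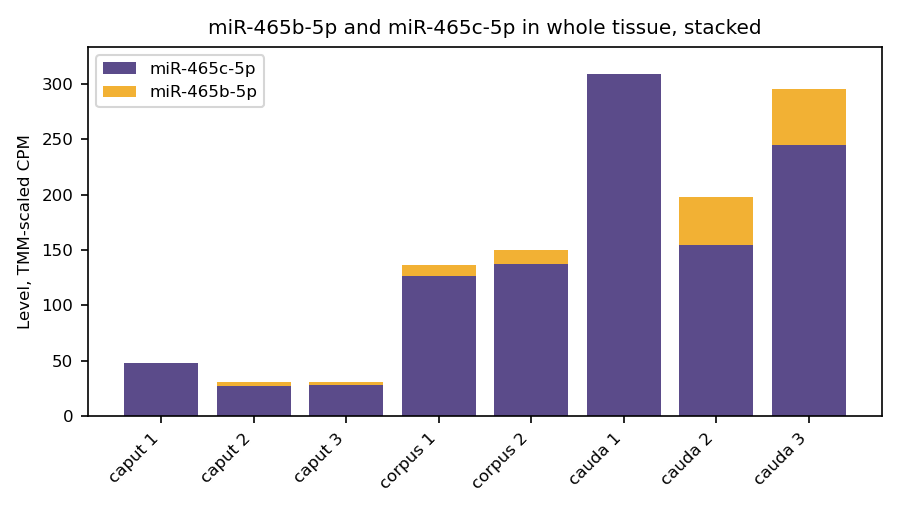
Level of miR-465c-5p (purple) and miR-465b-5p (yellow), stacked, in TMM-scaled CPM (vertical axis, from 0) in the 8 whole tissue libraries. The yellow part is 0 in the first caput and first cauda library, and the stacks are 30.7 to 48.2 CPM in the caput, 136 and 150.2 CPM in the corpus and 198 to 309 CPM in the cauda.

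miR-871-5p, from the other arm of the miR-871 hairpin, had 34.1, 26.2 and 28.5 CPM in caput, 115 and 120.0 CPM in corpus and 277, 211 and 235 CPM in cauda libraries, with narrow spreads, and was called at each step, by 1.99 (SE 0.19), 1.03 (SE 0.15) and 3.01 (SE 0.17). miR-743a-3p, which shares its seed with miR-743b-3p, had 11 ± 3.23 CPM in the caput, 31.3 ± 2.06 CPM in the corpus and 91.1 ± 34.2 CPM in the cauda (SD, n = 3, 2 and 3), and was called at each step with 3.03 (SE 0.40) from caput to cauda. miR-878-5p had 4.39 ± 0.503, 14.8 ± 4.07 and 41 ± 9.97 CPM in the 3 regions and was likewise called at each step, with 3.14 (SE 0.37) from caput to cauda. The same held for miR-880-3p, whose caput level was 5.49 ± 4.17 CPM and whose cauda level was 43.5 ± 16 CPM, and for miR-883a-3p, at 3.48 ± 2.41 and 23.3 ± 7.95 CPM.

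miR-471-3p and miR-470-3p, the lesser arm of the miR-470 hairpin, were called from caput to corpus and from caput to cauda, where their log2 changes were 2.27 (SE 0.46) and 3.12 (SE 0.77). From corpus to cauda neither was called (0.64 (SE 0.39, adjusted p = 0.175) and 0.73 (SE 0.56, adjusted p = 0.275)). miR-463-5p had 3, 1 and 3 reads in the caput libraries and 23, 14 and 12 in the cauda, and was called from corpus to cauda (1.27 (SE 0.49)) and from caput to cauda (2.49 (SE 0.51)). miR-743a-5p had 2 reads over the 3 caput libraries, 2 over the 2 corpus libraries and 40 over the 3 cauda libraries. The ratio of cauda to caput was 18.3 (exact 95% interval of the counts, 4.76 to 157) and that of cauda to corpus 10.9 (2.82 to 92.9), and both comparisons were called.

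These calls differed in how they held when 1 library was left out. From caput to cauda, all 19 called members stayed called without any single library and under every other setting that tested them. From caput to corpus, 12 of the 17 did, and the other 5 (miR-470-3p, miR-471-3p, miR-743a-3p, miR-880-3p and miR-883a-3p) each lost the call without some library. From corpus to cauda, 4 of the 10 (miR-465a-5p, miR-743a-3p, miR-743a-5p and miR-878-5p) stayed called throughout. Without the first cauda library 5 members were called there rather than 10, and miR-463-5p, miR-743b-3p, miR-871-5p, miR-880-3p, miR-881-3p and miR-883a-3p lost the call. This library had the highest share of members of all 14.

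The replicates are called biological in the sources used here, and for epithelial cells also technical in 1 place, so p-values measure the spread between these libraries, which may be technical.

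In epithelial cells, from which sperm had been removed, the same comparison of regions was made over fewer members. From caput to corpus, limma called 4 of the 6 members tested, all higher in the corpus (12.2% of all 205 miRNAs tested were called and 6.34% called higher), edgeR called 5 (15.1% of all) and DESeq2 6 (12.7% of all). From corpus to cauda, limma called 0 of 8 members, where 10.9% of all miRNAs were called. An unadjusted p below 0.05 in limma was found for 0 of 8 members, against 30.2% of all miRNAs tested. Both edgeR and DESeq2 called 0 members there. From caput to cauda, limma called 5 of 8, all higher in the cauda (25.9% called, 13.9% called higher), while edgeR called 8 of 8 (27.3% of all) and DESeq2 8 of 8 (22.7% of all), also higher. Only miR-470-5p and miR-871-3p were identified in the caput, and both were called against the corpus and against the cauda. Of all miRNAs identified in both regions compared, 11.9% were called from caput to corpus and 20.1% from caput to cauda. The log2 changes of single members are those of limma. The 6 members tested from caput to corpus and the 8 tested from caput to cauda had no overlap between caput and distal libraries. In the higher direction the same held for 27.3% and 35.6% of all miRNAs tested. Of these members, 4 and 6 had passed the count filter through the distal region alone, which favours such a separation. From corpus to cauda there was no overlap for 1 of 8 members (35.4% of all), which was miR-465a-5p, identified in the cauda alone.

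miR-881-3p had 28 and 32.2 CPM in caput, 454 and 204 CPM in corpus and 197 and 454 CPM in cauda libraries of epithelial cells. The caput libraries lay far below the others, and corpus and cauda overlapped. Its log2 change was 3.33 (SE 0.69, adjusted p = 0.0129) from caput to corpus, 3.21 (SE 0.65, adjusted p = 0.00778) from caput to cauda and -0.12 (SE 0.49, adjusted p = 0.86) from corpus to cauda, the last with a 95% interval of -1.25 to 1.01. miR-871-3p had 84 and 48.3 CPM in caput, 609 and 296 CPM in corpus and 290.4 and 353 CPM in cauda libraries, and was the highest member of the corpus. It was called from caput to corpus at 2.74 (SE 0.45, adjusted p = 0.00641) and from caput to cauda at 2.29 (SE 0.43, adjusted p = 0.00579).

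miR-470-5p had 96.5 and 41.9 CPM in caput, 519 and 255 CPM in corpus and 201.1 and 454 CPM in cauda libraries. It was called from caput to corpus at 2.52 (SE 0.61, adjusted p = 0.0227) and from caput to cauda at 2.17 (SE 0.58, adjusted p = 0.0208). miR-741-3p had 31.1 and 22.6 CPM in caput, 357 and 91.9 CPM in corpus and 78.2 and 139 CPM in cauda libraries, with its first corpus library above both cauda libraries. limma called it from caput to corpus at 2.81 (SE 0.74, adjusted p = 0.031) but not from caput to cauda (1.88 (SE 0.72, adjusted p = 0.0687)) or from corpus to cauda (-0.92 (SE 0.60, adjusted p = 0.31), 95% interval -2.30 to 0.45).

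miR-743b-3p had 24.9 and 16.1 CPM in caput, 227 and 71.5 CPM in corpus and 52.1 and 277 CPM in cauda libraries, a wide spread within both distal regions, and limma called it in no regional comparison of epithelial cells (2.68 (SE 1.09, adjusted p = 0.123) from caput to corpus and 2.42 (SE 1.01, adjusted p = 0.0891) from caput to cauda). miR-465c-5p had 18.7 and 9.67 CPM in caput, 146 and 71.5 CPM in corpus and 48.4 and 167 CPM in cauda libraries. It was called from caput to cauda at 2.53 (SE 0.82, adjusted p = 0.0412), while from caput to corpus its adjusted p in limma was just above the threshold (2.87 (SE 0.88, adjusted p = 0.0508)). miR-465a-5p had 1 and 1 reads in caput libraries, 3 and 2 in corpus libraries and 12 and 18 in cauda libraries. Over the libraries this was 2 reads in the caput against 30 in the cauda, a ratio of 19.8 (exact 95% interval of the counts, 5.03 to 171), and it was called. miR-871-5p had 2 and 2 reads in caput libraries, 8 and 1 in corpus libraries and 7 and 20 in cauda libraries, and limma did not call it from caput to cauda (2.64 (SE 0.96, adjusted p = 0.0598)). Both edgeR and DESeq2 called miR-741-3p, miR-743b-3p and miR-871-5p from caput to cauda and miR-465c-5p from caput to corpus, and DESeq2 also called miR-743b-3p from caput to corpus.

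The calls in epithelial cells depended on single libraries. Without the second caput library, 0 members were called from caput to corpus and 0 from caput to cauda. Without the first corpus library, 1 of the 3 members still tested was called from caput to corpus and 8 of 8 from caput to cauda, and without the second cauda library 3 of 7 were called from caput to cauda. No called member changed direction in these fits. Of the uncalled changes from corpus to cauda, that of miR-881-3p turned to 0.50 and that of miR-741-3p to 0.10 without the first corpus library.

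Whether a regional change differed between the preparations was tested as an interaction over the 194 names identified in both, 8 of them members. No member was called in any of the 3 interactions by limma, where 0.515, 4.64 and 11.9% of the names were called. The unadjusted p was below 0.05 for 1, 4 and 0 of the 8 members, against 17, 26.3 and 29.9% of the names. DESeq2 called 1 member from caput to corpus, 1 from corpus to cauda and 0 from caput to cauda. Its share over all names is not given here. For all 8 members the signed log2 change from corpus to cauda was lower in epithelial cells than in whole tissue. The median difference was -1.34 against 0.04 over all names. The difference for miR-881-3p was -1.44 (SE 0.49, adjusted p = 0.0888) with a 95% interval of -2.48 to -0.40, and that for miR-741-3p was -1.75 (SE 0.76, adjusted p = 0.175) with an interval of -3.37 to -0.14. From caput to cauda the differences lay between -1.08 and 0.33. These intervals include differences of several fold.

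The preparations were then compared within each region, on CPM scaled jointly over the 578 names in both tables. Each preparation had a count table of its own, with partly different names. Preparation therefore cannot be told apart from any difference in sequencing or counting between the tables. No member that passed the count filter was called higher in epithelial cells. In the cauda 15 of 20 members tested were lower in epithelial cells (37.8% of all 296 miRNAs were called and 22.6% called lower), in the caput 7 of 12 (35.2% called, 20.1% called lower) and in the corpus 5 of 18 (25.5% called, 15.3% called lower). Among members identified in both preparations, 8 of 8 were called in cauda, 0 of 2 in caput and 0 of 6 in corpus. Of all miRNAs identified in both preparations, 40.9, 33 and 25.6% were called in the same order. The other members entered the test through whole tissue alone. By distinct sequences, 13 of 18 were lower in the cauda, 5 of 10 in the caput and 3 of 16 in the corpus. When all miRNAs of at least 1 count were tested, 4 members (miR-463-3p, miR-878-3p, miR-883a-5p and miR-883b-5p) were called higher in the epithelial caput and 8 in the epithelial corpus, beside 7 and 7 called lower. Of all 577 miRNAs then tested, 28.1% were called higher and 12.5% lower in the caput (40.6% in all), and 35.5% higher and 10.6% lower in the corpus (46.1% in all), with a median of 0.50 and 0.79. The 4 had 0 to 1 reads over the whole caput and 0 over the epithelial caput, and the 8 had 1 to 3 reads over the whole corpus and at most 1 over the epithelial corpus, at or under the floor of 3 reads in both preparations. Every epithelial library lay below every whole tissue library for 17 of 20 members in the cauda, 9 of 12 in the caput and 9 of 18 in the corpus, against 44.9, 38.7 and 44.4% of all miRNAs tested. The median log2 difference of the members identified in both preparations was -1.59 in the cauda (8 members), -0.48 in the caput (2 members) and -0.08 in the corpus (6 members), against 0.14, 0.19 and 0.22 over all miRNAs identified in both.

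In the cauda, miR-881-3p had 1471, 999 and 1146 CPM in whole tissue and 212 and 484 CPM in epithelial cells, with no overlap, and was lower by a log2 difference of -1.93 (SE 0.31, adjusted p = 6.01e-05). miR-743b-3p had 1201, 706 and 785 CPM in whole tissue and 56 and 296 CPM in epithelial cells, at -2.83 (SE 0.48, adjusted p = 0.000125). Over the 20 members tested the differences ran from -0.59 (SE 0.51) for miR-883a-3p, not called, to -3.29 (SE 0.52) for the 3 identical miR-465 3p names. The called miR-871-3p at -1.09 (SE 0.38), miR-470-5p at -1.18 (SE 0.37) and miR-871-5p at -2.40 (SE 0.43) lay in between. The shared miR-465 3p sequence, with the reads of its 3 names added, had 1128 reads over the whole cauda libraries and 10 over the epithelial ones, a ratio of 11.3 (exact 95% interval of the counts, 6.10 to 23.5). miR-463-5p had 49 reads in whole cauda and 0 in epithelial cauda, and was at least 1.63-fold lower, taking 3 reads over the group as the floor.

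In the caput, miR-881-3p had 167, 132 and 137 CPM in whole tissue and 28.7 and 40.3 CPM in epithelial cells, a log2 difference of -2.03 (SE 0.51, adjusted p = 0.00343). miR-743b-3p differed by -1.996 (SE 0.72, adjusted p = 0.0276) and miR-871-5p by -1.74 (SE 0.64, adjusted p = 0.0302). By contrast miR-470-5p, with 144.8, 64.7 and 88 CPM in whole tissue and 98.9 and 52.4 CPM in epithelial cells, overlapped between the preparations and was not called (-0.32 (SE 0.53, adjusted p = 0.646), 95% interval -1.43 to 0.79), and neither were miR-871-3p (-0.64 (SE 0.55, adjusted p = 0.354)) or miR-741-3p (-0.54 (SE 0.70, adjusted p = 0.548)). In the corpus, miR-881-3p had 435 and 504 CPM in whole tissue and 447 and 225 CPM in epithelial cells and was not called (-0.49 (SE 0.38, adjusted p = 0.33), 95% interval -1.31 to 0.32). miR-871-3p was not called there either (0.31 (SE 0.45, adjusted p = 0.589), 95% interval -0.64 to 1.27). Called lower in the epithelial corpus were miR-871-5p, miR-743a-3p and the 3 identical miR-465 3p names, where over the 2 epithelial libraries miR-743a-3p had 1 read and the shared 3p sequence 9 reads. None of these 5 corpus calls held in all settings, as 0 members were called with a replicate block and 1 by DESeq2.

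The counts for all 3 regions also moved with single libraries. In the cauda the number called fell to 7 without the first epithelial cauda library, in the caput to 4 without the first epithelial caput library, and in the corpus to 3 without the second whole corpus library and 0 without the second epithelial corpus library. The 6 cauda members, 4 distinct sequences, that stayed called under every setting that tested them were miR-881-3p, miR-743b-3p, miR-871-5p and the identical 3p names of miR-465a, b and c.

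**Figure D5:**
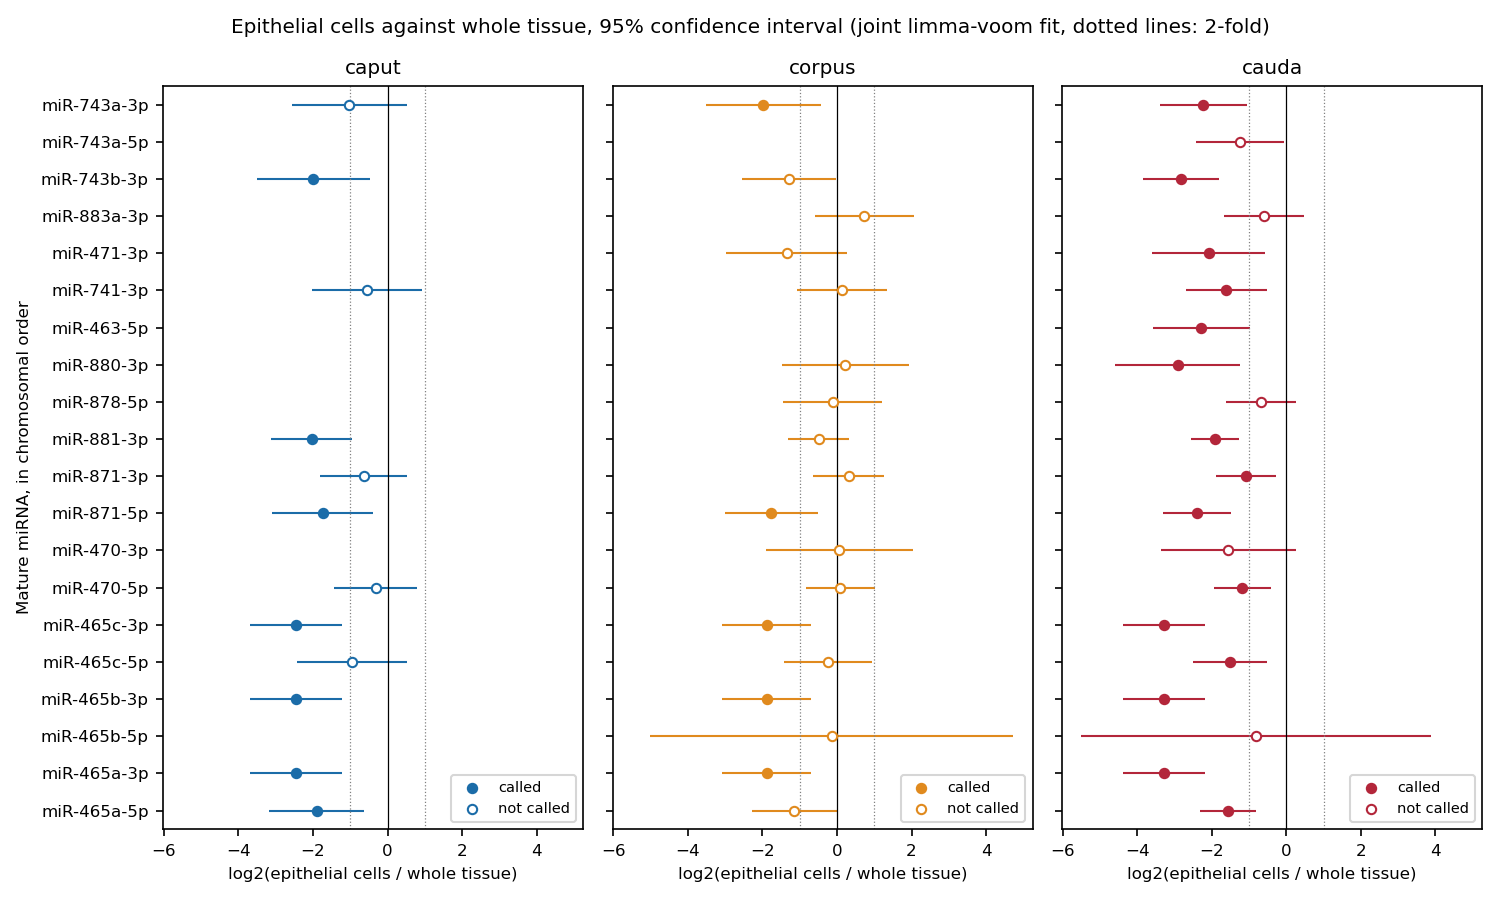
log2 difference of epithelial cells to whole tissue (horizontal axis, joint limma-voom fit) with its 95% confidence interval for each member tested, by region, filled where called. In the cauda all 20 members lie below 0 and 15 are called, while in the corpus 6 of the 18 lie above 0 and 5 are called lower.

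The arm that dominated each hairpin was the same in all regions of whole tissue for the hairpins with most reads. The 3p arm gave 98.4 to 99.8% of the reads of miR-741, 99.6 to 99.9% of miR-743b and 92.5 to 97.8% of miR-743a, and the 5p arm dominated miR-470, where 3p took 1.84 to 2.05%. miR-871 gave reads from both arms, with 3p at 80.9% in whole caput, 75.4% in whole corpus and 72.7% in whole cauda, and at 91.3, 92.0 and 84.9% in epithelial cells. The miR-465 hairpins a to d together gave 33.5, 40.5 and 33.0% from the 3p arm in whole tissue and 14.3, 21.95 and 11.1% in epithelial cells, on 14, 41 and 90 reads. No test was made on these shares. The 5p arms of miR-880 and miR-881 were not analysed here.

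Other miRNAs of the X chromosome changed in both directions. Among 53 other X-linked names in whole tissue, 23 were tested from caput to cauda, of which 3 were higher and 8 lower in the cauda, with a median log2 change of -0.73. The 4 names of miR-201 and miR-547, which lie in the same interval between Slitrk2 and Fmr1 outside the rule, summed to at most 8.53 CPM in a whole tissue library, and none was tested.

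A list of miRNAs known from germ cells and ciliated cells but encoded outside the cluster was examined beside the members. The list of miR-34b, miR-34c and miR-449 summed to 3690 to 5134 CPM in whole caput, 3713 to 4481 CPM in whole corpus and 8438 to 10358 CPM in whole cauda. Most of this was miR-34c-5p, with means of 4124, 3617 and 8138 CPM in the same order. In whole tissue, 2 of the list's 5 tested names were higher in corpus than caput, 5 of 5 in cauda than corpus and 3 of 5 in cauda than caput. The median log2 change was -0.09, 1.29 and 1.20. In epithelial cells the list summed to 3747 to 4235 CPM in caput, 1705 to 2020 CPM in corpus and 1929 to 5177 CPM in cauda, and 0 of 4 tested names were called in each regional comparison, with a median log2 change of -0.93, 1.13 and 0.20. Against whole tissue, 0 of 5 were lower in epithelial caput, 2 of 5 in epithelial corpus and 4 of 5 in epithelial cauda, and in the interaction from caput to cauda 2 of 4 were lower. Marker names of other cell types also differed between regions. In whole tissue, 7 of 7 muscle names and 6 of 6 red blood cell names were higher in the cauda than in the caput. So were 3 of 5 leukocyte names, while 5 of 9 epithelial names were lower and 0 of 2 endothelial names were called. In epithelial cells, 0 of 4 muscle names, 3 of 3 red blood cell names and 2 of 2 leukocyte names were higher between the same regions. By single steps in whole tissue, 4 of 4 red blood cell and 1 of 4 leukocyte names rose from caput to corpus. There 0 of 5 muscle names were called and 1 of 9 epithelial names fell. From corpus to cauda, 4 of 6 red blood cell, 4 of 7 muscle and 1 of 5 leukocyte names rose, and 3 of 9 epithelial names fell. By single steps in epithelial cells, the 2 endothelial names fell from caput to corpus (median log2 change -1.20) and rose from corpus to cauda (1.86). In the latter step 2 of 3 red blood cell names and 1 of 2 leukocyte names also rose. Of 8 epithelial names, 1 rose from caput to corpus and 2 fell from corpus to cauda. Between preparations, 2 of 3 muscle names were higher in the epithelial caput, 2 of 3 in the epithelial corpus and 0 of 5 in the epithelial cauda. Leukocyte names were higher in epithelial cells for 1 of 2 in caput, 0 of 2 in corpus and 2 of 3 in cauda, where the remaining 1 was lower. Of 9 epithelial names, 2 were lower in the epithelial caput, 2 in the epithelial corpus and 2 in the epithelial cauda, where another 2 were higher. In the interaction from caput to cauda, 2 of 2 muscle names had a lower change in epithelial cells. There 3 of 8 epithelial names had a higher change. In the cauda, 0 of 2 red blood cell names were called between preparations. The part of cell composition in the members' changes was not tested.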

How the data were processed

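Small RNA libraries from whole epididymal tissue (8) and isolated epithelial cells (6) were used, with groups taken from the sample labels. The values that the authors deposited are expected counts of each mature miRNA without normalization, in 1 table per preparation. Per the methods, reads had been trimmed, screened against PhiX, adaptor, mitochondrial and ribosomal sequences, and aligned to mm10 and to miRBase release 21. The submitters' processing notes name CASAVA 1.8.2, Bowtie 1.1.1 and limma. How reads matching several miRNAs were divided is not given in the sources used here, and fractional counts are taken as such divisions. The constant 0.001 added to every epithelial value was removed, and 0 columns were left unused. The study's methods give fewer replicates for caput and cauda whole tissue than the 3 libraries analysed here.

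Counts were rounded to whole numbers, scaled with the TMM factors of edgeR 4.0.16 and fitted by voom and limma 3.58.1 under R 4.3.3, with 1 fit per preparation, region means and no replicate block, and in a joint fit over the 578 shared names for comparisons between preparations. A miRNA was tested when its mean count was above 10 in either group compared, or in at least 1 region of both preparations for interactions. Benjamini-Hochberg adjustment covered all miRNAs tested, and a call needed an FDR below 0.05 and at least a 2-fold change. CPM values are TMM-scaled per preparation unless said to be joint. Ratios on few reads carry exact 95% intervals, and a group at 0 was set to a floor of 3 reads. Depth per library bounds the precision: 3 reads equal 1.54 CPM in the first whole cauda library.

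Members identified in either preparation are named with values, every library is given for those identified in epithelial cells, and members of identical sequence are given together. The members and marker lists were chosen with earlier results of these data known. On simulated data with known changes, limma-voom recovered 89 of 89 changed miRNAs with 1 false call for whole tissue caput against cauda (900 names), 59 of 62 with 1 false call for the same regions of epithelial cells (677 names), and 71 of 72 with 4 false calls among 127 unchanged miRNAs for the interaction of preparation and region from caput to cauda (578 names). Alternatives were edgeR's quasi-likelihood test, DESeq2 1.42.0, other size factors, library totals, other count filters, only the regions compared, a replicate block, identical sequences added, and each library left out in turn. Correlations of the libraries' deviations from their region means did not show that replicate numbers pair libraries.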

Additional observations from a re-analysis of the deposited data

How the results depend on the processing

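Over all settings, no called member reversed direction. Of 701 values of called members under settings other than leaving out a library, 673 stayed called and 28 lost the call, and of 798 values with a library left out, 718 and 80 did. With at least 10 counts in every library, the members called became 12 from caput to cauda in whole tissue, 2 from caput to corpus and 2 from caput to cauda in epithelial cells, and 0, 0 and 7 for epithelial cells against whole tissue in caput, corpus and cauda, since fewer members were tested. With all miRNAs of at least 1 count, the numbers were 11 and 9 in those 2 epithelial comparisons, 2 and 2 in the interactions from corpus to cauda and from caput to cauda, and 11 and 15 for epithelial cells against whole tissue in caput (4 higher and 7 lower, with 40.6% of all miRNAs called) and corpus (8 higher and 7 lower, with 46.1% called). From caput to cauda in epithelial cells, edgeR called 8 members and DESeq2 8. DESeq2 called 1 in the interaction from caput to corpus, 1 in that from corpus to cauda, and 1 for epithelial cells against whole tissue in the corpus. The cause was not tested. Where a setting has no share of all miRNAs called beside it, its count of members cannot be read against all miRNAs.

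Leaving out each library in turn gave 13 to 18 members from caput to corpus, 5 to 12 from corpus to cauda and 19 to 20 from caput to cauda in whole tissue, and 0 to 6, 0 to 0 and 0 to 8 in epithelial cells. The interaction from corpus to cauda gave 0 to 1, and epithelial cells against whole tissue 4 to 7 in the caput, 0 to 7 in the corpus and 7 to 17 in the cauda. Identified members of the epithelial corpus ranged from 3 to 6, with 3 when every library had to exceed 10 counts. Drawn down to a common depth, 8 members were identified in whole tissue (1.5, 7 and 8 by region, 1.5 in all), and 0 in the epithelial caput and in all epithelial regions. As a share of counts outside the 10 most abundant miRNAs, the members took 0.231, 0.934 and 2.01% in whole caput, corpus and cauda and 0.0819, 0.614 and 0.534% in the epithelial regions, and 0.228% of TMM-scaled CPM in whole corpus.

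A replicate block gave 17, 9 and 20 members in the whole tissue comparisons, 4, 0 and 4 in the epithelial ones, 0 in the interactions, and 7, 0 and 14 for epithelial cells against whole tissue. Same-numbered libraries correlated at -0.06 to 0.22 in whole tissue and at 0.20, -0.14 and -0.18 in the epithelial comparisons, so the numbers were not taken as pairs. A crossed pairing, added after seeing the data, called 0 of 8 members from corpus to cauda and 8 of 8 from caput to cauda in epithelial cells. The uncalled change of miR-465b-5p from corpus to cauda in whole tissue, -0.72, became 1.449 with edgeR, 1.55 with DESeq2 and 1.06 with the block, and -2.06 to 2.03 with a library left out. Other uncalled changes that turned sign were those from corpus to cauda in epithelial cells of miR-741-3p (-1.79 to 0.10) and miR-881-3p (-0.69 to 0.53), and miR-871-3p in epithelial cells against whole tissue in the corpus (-0.33 to 0.70). The 89039 to 362867 counts of the epithelial libraries limit what could be tested there, as 22 of the 30 members had at most 10 reads in every library.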
